A study of Mus musculus with 3 samples.

Results

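The ATF4 amino acid response genes described here are 35 mouse genes for serine and one-carbon enzymes, other amino acid enzymes, amino acid transporters and stress regulators. They were chosen by name, as the probe sets that carry a listed symbol and no other. The list was drawn up with earlier results of these data known. Of the 35 genes, 34 were measured, each by 1 probe set, out of 19938 genes on the arrays. Pycr1, an enzyme of proline synthesis, has no such probe set and is not analysed here. Phgdh also appears on a probe set shared with another symbol, which was not used.

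The series holds 3 arrays of RNA from soft tissue sarcomas of mice with an inducible EWS/ATF1 transgene, the fusion of clear cell sarcoma. By its label, the array labelled tumor carries RNA resected from a mouse that had doxycycline for 3 months. The label of the high doxycycline array states RNA of cultured tumor cells 24 h after 0.2 microg/ml doxycycline. That of the control array states RNA of cultured tumor cells at 0 microg/ml and the same 24 h. All 3 come from a mixed background of the strains C57/BL6, 129 and ICR, as the labels give them. The promoter of the transgene, the age of the mice and the number of animals behind the cultures were not stated in the labels. Each group has 1 array, so no difference could be tested, and every value below describes these arrays only.

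Marker genes went against 2 of the labels. Of 31 markers of macrophages, endothelium, skeletal muscle, collagen-making cells and red blood cells, 8 exceeded the median probe set of the array labelled tumor, 9 that of high doxycycline and 30 that of control. Their summed intensity was 5232 on tumor, 5421 on high doxycycline and 100830 on control. No marker was listed at 0. In summed intensity, the macrophage markers had 1155 on tumor, 1459 on high doxycycline and 28313 on control, and the skeletal muscle markers had 1037, 1191 and 21604 in the same order. Tissue genes were thus bright on an array labelled as a culture and mostly dim on the array labelled tumor. Differences against the array labelled control move with these markers, and their part in the members' differences was not tested. In bulk RNA, fewer cells of a type and less RNA per cell cannot be told apart. Both labels are in doubt alike, and whether the titles of the arrays labelled tumor and control were exchanged was not tested. Under such an exchange, the pair of tumor and high doxycycline would set untreated against treated culture, and the pair of high doxycycline and control would set culture against tissue. The groups below are therefore named by their labels only, and all 3 pairs are given.

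ATF4 is a transcription factor whose translation increases when the initiation factor eIF2 is phosphorylated, by the kinase GCN2 in amino acid shortage or by PERK in stress of the endoplasmic reticulum. With C/EBP partners it binds composite elements in the promoters of genes for amino acid synthesis, amino acid import and charging of tRNA, and of genes that limit the response. Because ATF4 is controlled largely at translation, its mRNA level is not a measure of its activity.

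The composite element was searched in RefSeq promoters as TGATGNAA on either strand, which reads TTNCATCA on the other; both spellings cannot begin at the same base, and matches could overlap. The windows run from 250 bases before to 50 bases after each gene's start. Windows were found for 30 of the 35 members, and 9 of the 30 (30.0%) held a match, against 4.51% of all 27025 genes with a window. The 9 were Asns, Slc7a11, Chac1, Trib3, Nupr1, Slc1a4, Vldlr, Got1 and Pycr1. A match is a description of letters, not a bound site, and the members were gathered under the name of this factor. The windows of 3 genes are shown in full because they had the largest differences of any member when high doxycycline was set against control: Asns (chr6:7693160-7693459, minus strand), Slc7a11 (chr3:50443564-50443863, minus strand) and Shmt2 (chr10:127522395-127522694, minus strand), in GRCm38.p6, 5′ to 3′ along the gene, with matches in capitals. Shmt2 has no match in this window.
Asns: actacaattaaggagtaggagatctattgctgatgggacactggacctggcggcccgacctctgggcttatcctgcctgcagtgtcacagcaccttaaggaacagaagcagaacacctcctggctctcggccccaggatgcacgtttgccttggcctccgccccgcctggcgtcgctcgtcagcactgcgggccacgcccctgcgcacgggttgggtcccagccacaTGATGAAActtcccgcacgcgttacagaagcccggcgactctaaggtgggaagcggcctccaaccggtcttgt
Slc7a11: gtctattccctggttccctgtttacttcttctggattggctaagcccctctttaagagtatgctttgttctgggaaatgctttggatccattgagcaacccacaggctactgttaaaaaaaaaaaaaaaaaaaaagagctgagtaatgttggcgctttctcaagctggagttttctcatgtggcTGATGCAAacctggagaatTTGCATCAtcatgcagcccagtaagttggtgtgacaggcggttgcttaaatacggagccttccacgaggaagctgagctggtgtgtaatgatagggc
Shmt2: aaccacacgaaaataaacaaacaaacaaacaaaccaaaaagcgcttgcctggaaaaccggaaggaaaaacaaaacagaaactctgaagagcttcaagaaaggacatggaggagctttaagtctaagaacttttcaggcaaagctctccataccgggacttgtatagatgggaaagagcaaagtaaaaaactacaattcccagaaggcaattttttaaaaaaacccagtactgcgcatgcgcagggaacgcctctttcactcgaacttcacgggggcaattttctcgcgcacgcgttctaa

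The match of Asns begins 23 bases before the start. Slc7a11 holds a pair of matches in opposite orientation, which begin 66 and 47 bases before the start. Short stretches around the match are shown for 4 genes with the same letters TTGCATCA and for Trib3, since, unlike Asns and Slc7a11, none of these 5 genes was past 2-fold in any pair of arrays: Chac1 (chr2:119351037-119351068, plus strand), Slc1a4 (chr11:20332698-20332729, minus strand), Nupr1 (chr7:126625561-126625592, minus strand), Got1 (chr19:43524688-43524719, minus strand) and Trib3 (chr2:152344027-152344058, minus strand). The matches of the first 4 begin 193, 4, 110 and 102 bases before the start, and that of Trib3 begins at base 15 after it. Vldlr, which also holds TTGCATCA and was past 2-fold in no pair, is not shown.
Chac1: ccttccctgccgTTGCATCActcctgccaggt
Slc1a4: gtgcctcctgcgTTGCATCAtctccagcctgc
Nupr1: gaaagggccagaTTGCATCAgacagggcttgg
Got1: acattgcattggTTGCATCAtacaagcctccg
Trib3: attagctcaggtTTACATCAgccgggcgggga

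Of the 34 measured members, 33 were bright in each pair. A gene is called bright in a pair where its higher value exceeded the median probe set of the array it stood on. The exception was Shmt1. Slc7a11 and Cth lay below the median on the array labelled control and entered its comparisons only through the other array. In total 31 members lay above the median on all 3 arrays.

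**Figure D1:**
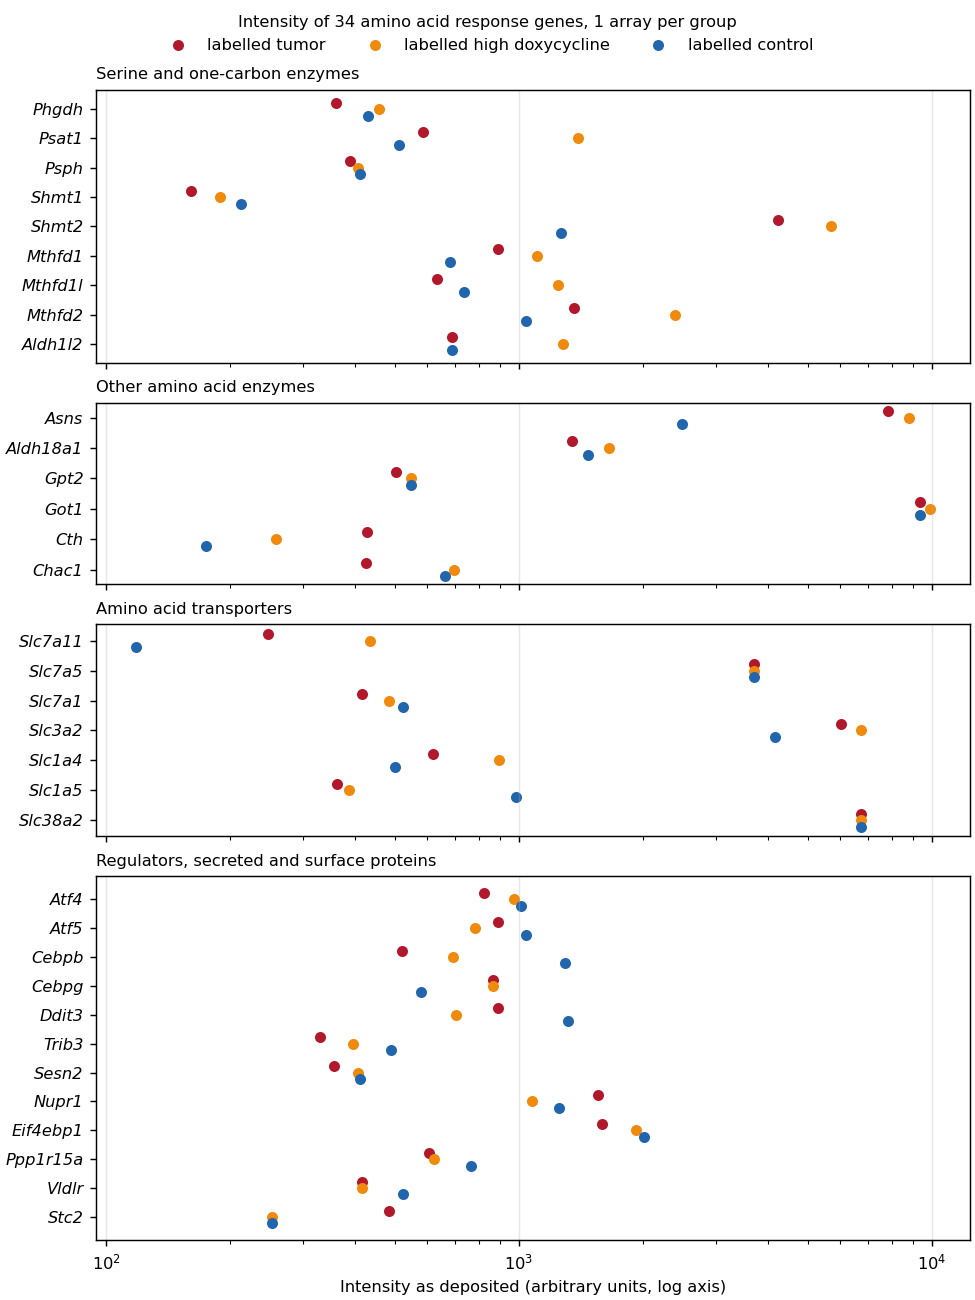
Deposited intensity (arbitrary units, log axis) of each of the 34 measured members on the arrays labelled tumor, high doxycycline and control, 1 point per array, grouped by role. Shmt2 and Asns are brighter on both other arrays than on control, Psat1 stands out on high doxycycline (1392), and Slc7a5 and Slc38a2 have the same value on all 3 arrays.

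Serine is made from a glycolytic intermediate by PHGDH, PSAT1 and PSPH in turn. Psat1, the aminotransferase of the middle step, had an intensity of 587 on the array labelled tumor, 1392 on high doxycycline and 513 on control. It was therefore high on a single array, by 2.71-fold over control. Between tumor and high doxycycline, Psat1 was the only member past 2-fold (2.37-fold dimmer on tumor, log2 difference -1.24). Phgdh, the first enzyme of the pathway, had 359 on tumor, 458 on high doxycycline and 430 on control. Psph, the phosphatase of the last step, had 391, 407 and 413 in that order. The first and last steps thus lay within 1.27-fold in every pair, unlike the middle one.

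Serine gives its side-chain carbon to folate through SHMT1 in the cytosol and SHMT2 in mitochondria. Shmt2 had 4236 on tumor, 5690 on high doxycycline and 1265 on control. It was high on the first 2 arrays, 3.35-fold for tumor over control and 4.50-fold for high doxycycline over control, the largest member difference of either pair. Its difference between high doxycycline and control exceeded that of 97.9% of the bright genes. Shmt1, the cytosolic enzyme, had 161 on tumor, 188 on high doxycycline and 212 on control, all below the array medians and, unlike Shmt2, highest on control.

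The mitochondrial enzymes downstream of SHMT2 followed Psat1 more closely than Shmt2. Mthfd2, a dehydrogenase and cyclohydrolase of mitochondria, had 1356 on tumor, 2388 on high doxycycline and 1037 on control. It was 2.30-fold brighter on high doxycycline than on control, and its log2 difference of 1.20 became 0.91 under quantile normalization. Mthfd1l, which releases formate from mitochondrial folate, had 632 on tumor, 1242 on high doxycycline and 734 on control. Aldh1l2, which oxidises mitochondrial formyl-folate, had 688 on tumor, 1281 on high doxycycline and exactly the tumor value again on control. All 3 genes were thus high on the array labelled high doxycycline alone, and on tumor they were 1.76-fold, 1.96-fold and 1.86-fold dimmer than there. Mthfd1, the cytosolic counterpart with 3 activities of the same pathway, had 889 on tumor, 1106 on high doxycycline and 680 on control. It too was highest on high doxycycline, 1.63-fold over control against 1.69-fold for Mthfd1l. The split by compartment was made after the values were seen.

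As a group, 3 of 8 bright serine and one-carbon enzymes were at least 2-fold brighter on high doxycycline than on control and none was dimmer, with a median log2 difference of 0.83. Over all 11933 bright genes of that pair 17.4% were brighter and 8.45% dimmer by 2-fold, with a median of 0.083. The group median was 0.97 with the arrays shifted to a common median and 0.59 under quantile normalization. Between tumor and control, Shmt2 alone passed 2-fold among the 8, where 18.5% of all bright genes were brighter, and the median was 0.097, which became -0.027 under quantile normalization. Between tumor and high doxycycline all 8 were dimmer on tumor (median -0.62). There 40.6% of all 11212 bright genes were dimmer and the median was 0. All 8 were dimmer under the 2 other scalings as well. All bright genes then had 3667 dimmer with a common median and 3920 under quantile normalization.

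**Figure D2:**
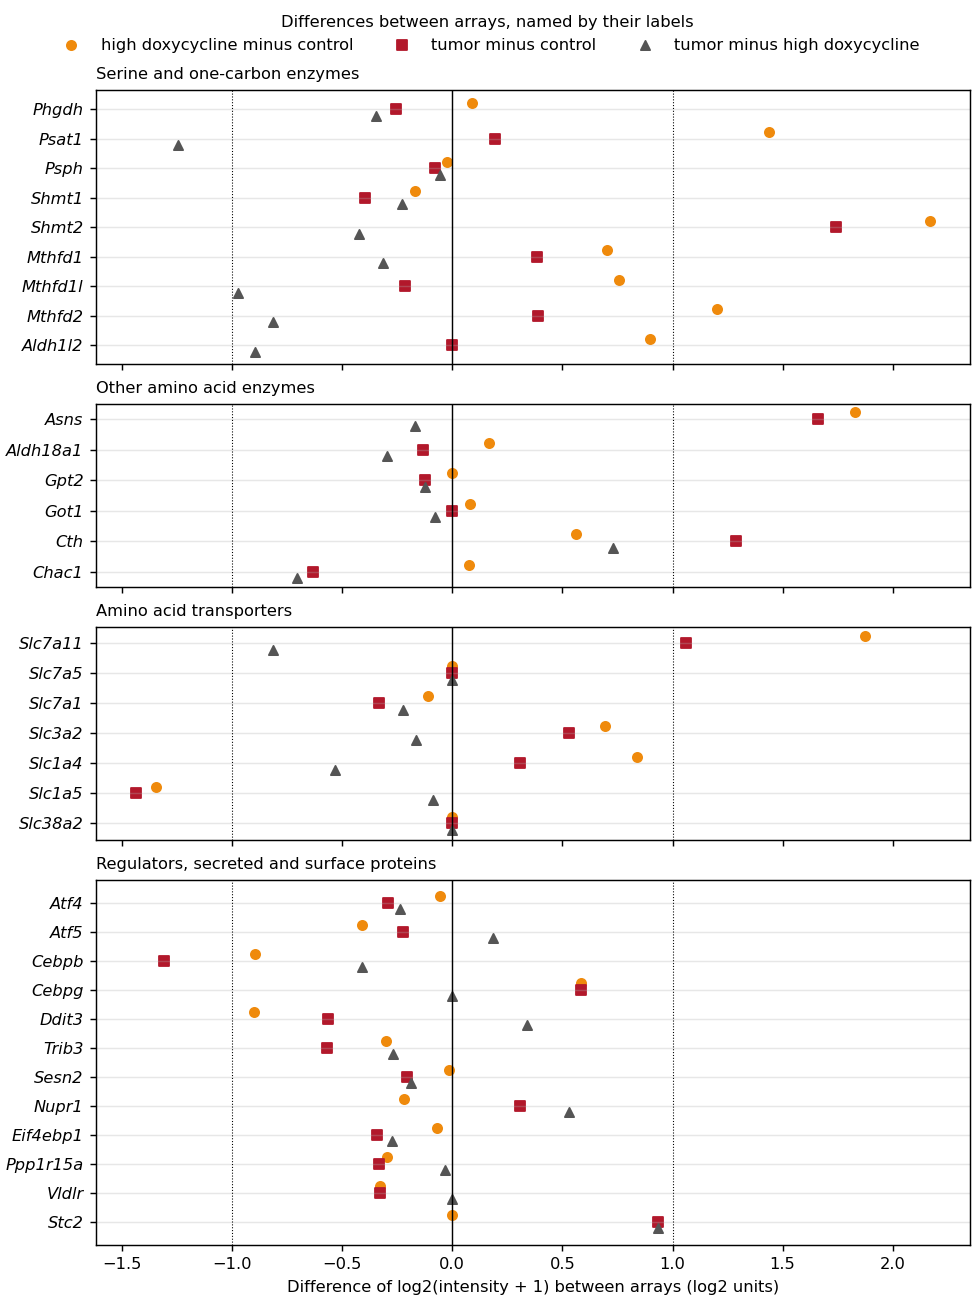
Differences of log2(intensity + 1) between arrays for each member: high doxycycline minus control (circles), tumor minus control (squares) and tumor minus high doxycycline (triangles); dotted lines mark 2-fold. The triangles of the serine and one-carbon enzymes all lie left of 0, and those of Stc2 and Cth lie farthest to the right, at 0.93 and 0.73.

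Asns encodes asparagine synthetase, a standard reporter of the amino acid response. It had 7851 on tumor, 8825 on high doxycycline and 2486 on control. Both of the first 2 arrays were high, by 3.16-fold for tumor and 3.55-fold for high doxycycline over control. Between tumor and high doxycycline it differed by 0.17 on the log2 scale, dimmer on tumor. Cth, the cystathionine gamma-lyase that makes cysteine, was ordered differently from Asns. It had 429 on tumor, 258 on high doxycycline and 175 on control, 2.45-fold brighter on tumor than on control.

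Chac1, which degrades glutathione and is a marker of ATF4 and CHOP activity, had 426 on tumor, 695 on high doxycycline and 660 on control. It was thus low on the array labelled tumor alone, 1.63-fold below high doxycycline. The remaining enzymes lay close together. Aldh18a1, the first enzyme of proline synthesis from glutamate, had 1343 on tumor, 1652 on high doxycycline and 1472 on control. Gpt2, the mitochondrial alanine aminotransferase, had 503 on tumor and identical values of 549 on high doxycycline and control. Got1, the cytosolic aspartate aminotransferase, had 9359 on tumor, 9891 on high doxycycline and the tumor value again on control. Of these 6 enzymes, Asns was past 2-fold between high doxycycline and control, where 17.4% of all bright genes were brighter. Asns and Cth were past it between tumor and control, where 18.5% of all bright genes were brighter. None was between tumor and high doxycycline, where 1.58% of all bright genes were brighter and 1.94% dimmer by that margin.

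Slc7a11 encodes xCT, the subunit that carries cystine in exchange for glutamate. It had 247 on tumor, 435 on high doxycycline and 118 on control, each array apart from the next. The fold was 3.66 for high doxycycline over control and 2.08 for tumor over control; the log2 difference of 1.06 in the second pair became 0.97 with a pseudocount of 16 and 0.77 with 64. Slc3a2, the heavy chain that xCT and LAT1 share, had 6017 on tumor, 6743 on high doxycycline and 4169 on control. Slc1a4, a carrier of alanine, serine and cysteine, had 618 on tumor, 893 on high doxycycline and 500 on control. These 3 transporter genes were dimmest on control and brightest on high doxycycline.

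The glutamine carrier gene Slc1a5 was instead brightest on control. It had 363 on tumor, 387 on high doxycycline and 985 on control, 2.71-fold dimmer on tumor and 2.54-fold dimmer on high doxycycline than on control. No other transporter of the 7 was dimmer by 2-fold, against 10.2% of all bright genes for tumor and 8.45% for high doxycycline. Slc7a1, the carrier of arginine and lysine, had 416 on tumor, 486 on high doxycycline and 524 on control. Slc7a5, the light chain of the leucine carrier LAT1, was listed at 3709 and Slc38a2, which imports small neutral amino acids, at 6723, on all 3 arrays alike to the last deposited digit. In both comparisons with control the median of the 7 transporters was 0, the value of Slc7a5 and Slc38a2 with their equal intensities. Between tumor and high doxycycline it was -0.16. Under a common median it was 0.14 for high doxycycline minus control and 0.19 for tumor minus control, and under quantile normalization -0.14 and -0.096.

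Atf4 itself had 824 on tumor, 973 on high doxycycline and 1011 on control, within 1.23-fold in every pair. Atf5, a related factor that is also translated under stress, had 889 on tumor, 782 on high doxycycline and 1038 on control. As deposited, neither factor was brighter on tumor or high doxycycline than on control. With a common median the difference of Atf4 between high doxycycline and control, -0.055 as deposited, turned to 0.086. Cebpg, a partner of ATF4 in driving amino acid genes, had identical values of 867 on tumor and high doxycycline and 578 on control. Among the 12 regulators and secreted or surface proteins Cebpg was the only one brighter on high doxycycline than on control as deposited. With a common median 5 were, and 2 under quantile normalization. Of all 11933 bright genes, 6426 were brighter as deposited, 8253 with a common median and 5783 under quantile normalization.

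Cebpb, a C/EBP factor with roles in inflammation and in this response, had 522 on tumor, 693 on high doxycycline and 1293 on control. It was dimmer than on control by 2.48-fold on tumor and by 1.86-fold on high doxycycline, the second past 2-fold under quantile normalization (-1.16). Ddit3, which encodes the stress factor CHOP, had 890 on tumor, 703 on high doxycycline and 1315 on control. Its difference between high doxycycline and control, -0.90 as deposited, became -1.17 under quantile normalization. Trib3, the pseudokinase that restrains ATF4, had 329 on tumor, 397 on high doxycycline and 489 on control. Ppp1r15a, which encodes the GADD34 subunit of the eIF2 phosphatase, had 607 on tumor, 622 on high doxycycline and 765 on control. Trib3 and Ppp1r15a were past 2-fold in no pair.

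Sesn2, a leucine sensor upstream of mTORC1, had 357 on tumor, 407 on high doxycycline and 412 on control. Eif4ebp1, the translational repressor 4E-BP1, had 1589 on tumor, 1919 on high doxycycline and 2014 on control. Both were dimmest on tumor, by less than 2-fold. Nupr1, a small stress-induced nuclear protein, had 1549 on tumor, 1074 on high doxycycline and 1251 on control, brightest on tumor. Vldlr, a lipoprotein receptor, had identical values of 416 on tumor and high doxycycline, against 523 on control. Stc2, a secreted glycoprotein, had 483 on tumor and identical values of 253 on high doxycycline and control. It was 1.91-fold brighter on tumor, and its log2 difference from control was 0.93 as deposited, 1.12 with a common median and 1.01 under quantile normalization.

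Of these 12 genes, none was past 2-fold between high doxycycline and control and Cebpb alone was between tumor and control, dimmer on tumor. Over all bright genes 17.4% were brighter and 8.45% dimmer by 2-fold in the first of these pairs, and 18.5% and 10.2% in the second. The group medians were -0.26 and -0.31, and 10 of 12 and 9 of 12 genes were dimmer than on control, against 36.9% and 38.9% of all bright genes in the same pairs. A common median brought the medians to -0.12 and -0.13, with 7 and 9 genes dimmer, and quantile normalization to -0.43 and -0.48, with 10 and 9 dimmer. Over all bright genes, 3680 of 11933 and 3761 of 12010 were dimmer with a common median. Under quantile normalization 6149 and 6083 of them were. Between tumor and high doxycycline the median was -0.018, which turned to 0.027 with a common median and 0.0030 under quantile normalization.

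Over the 33 bright members, 5 (15.2%) were at least 2-fold brighter on high doxycycline than on control, namely Shmt2, Slc7a11, Asns, Psat1 and Mthfd2, and 1 (Slc1a5) was dimmer. All bright genes had 17.4% brighter and 8.45% dimmer in that pair. Between tumor and control 4 (12.1%) were brighter, namely Shmt2, Asns, Cth and Slc7a11, and 2 were dimmer, Slc1a5 and Cebpb. All bright genes had 18.5% brighter and 10.2% dimmer in that pair. These 2 comparisons share the array labelled control. The member medians were 0 and -0.079, against 0.083 and 0.075 over all bright genes. The median of 0 is the value of members with equal intensities on both arrays. A shift to a common median moves every difference by 0.14 in the first pair and 0.19 in the second. At 0.5 on the log2 scale, a threshold set after the values were seen, 12 members were brighter and 3 dimmer on high doxycycline than on control, where all bright genes had 33.0% and 17.9%. On tumor against control 7 were brighter and 5 dimmer, where all bright genes had 33.5% and 20.4%. By these counts the members lay near the background or below it in the comparisons with control.

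**Figure D3:**
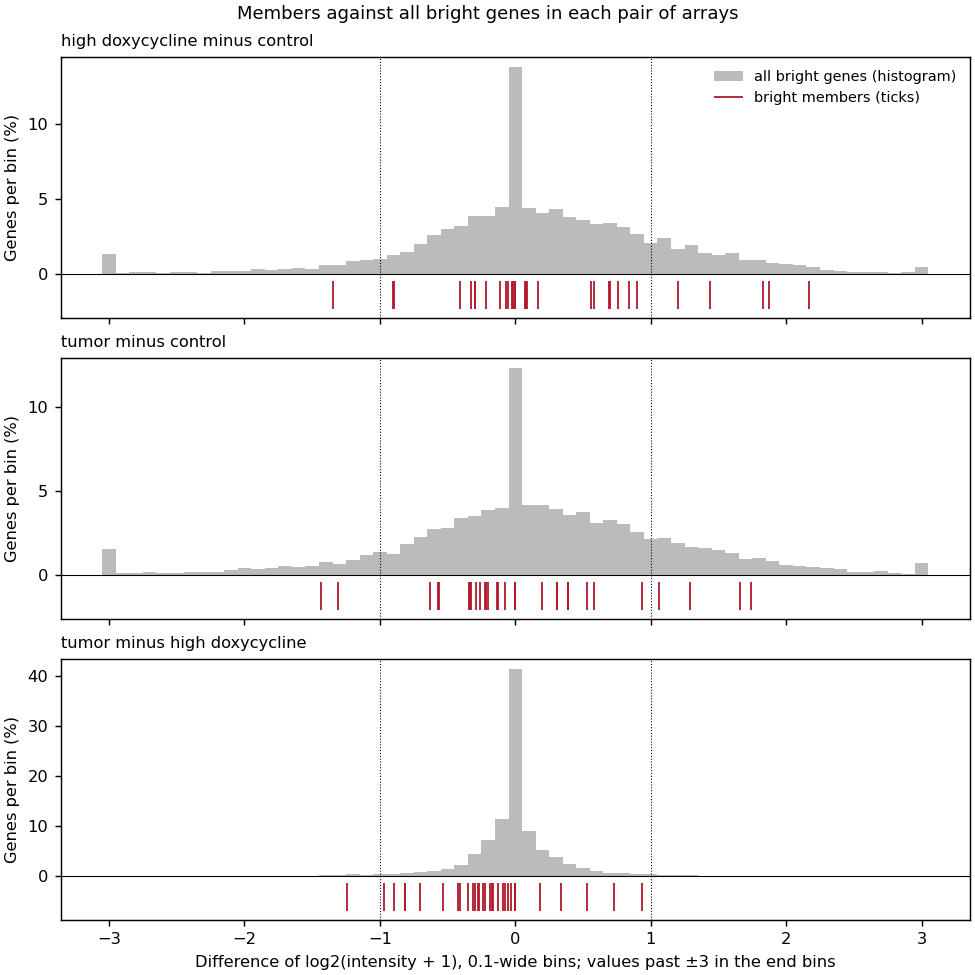
Distribution of log2 differences over all bright genes (grey, percent of genes per bin) with the bright members as red ticks below it, for each pair of arrays; dotted lines mark 2-fold. The ticks span the bulk of the distribution in the comparisons with control and lie mostly left of 0 for tumor minus high doxycycline, where 24 of 33 members were dimmer; the peak at 0 holds genes with equal values.

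The remaining pair does not use the array labelled control, but its direction rests on the label tumor, which the markers went against. Psat1 was the only member past 2-fold between tumor and high doxycycline, dimmer on tumor, which is 3.03% of 33 against 1.94% of all bright genes. Small differences leaned one way. Of the 33, 24 (72.7%) were dimmer on tumor, 5 were brighter and 4 were identical, against 40.6% of all bright genes dimmer, and the member median was -0.19 against 0. With a common median 23 were dimmer, against 3667 of all 11212 bright genes, and 24 were under quantile normalization, against 3920. At 0.5 on the log2 scale 7 members (21.2%) were dimmer on tumor, namely Psat1, Mthfd1l, Aldh1l2, Mthfd2, Slc7a11, Chac1 and Slc1a4. All bright genes had 5.81% at that threshold. Brighter on tumor by 0.5 were Stc2, Cth and Nupr1, 9.09% of members against 5.31% of all bright genes. Probe sets of 1 gene disagreed by a median of 0.055 in this pair and 0.37 in the pair of high doxycycline and control. Such probe sets lie on the same arrays, so this does not measure variation between arrays or samples. Equal values were also frequent in this pair, at 26.3% of all bright genes.

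A related count took genes whose intensity on high doxycycline exceeded both other arrays by at least 0.5 on the log2 scale. It held 6 of 33 members (18.2%), namely Psat1, Mthfd1l, Mthfd2, Aldh1l2, Slc7a11 and Slc1a4, against 2.24% of the 10962 genes bright in all pairs. With a common median and under quantile normalization it held 5 members, against 2.17% and 1.66% of genes. Slc1a4 dropped out, at -0.487 and -0.490 for tumor minus high doxycycline. All 6 are enzymes or carriers of serine, folate carbon or cystine and neutral amino acids, and none is a regulator. Every member outside the 12 regulators and secreted or surface proteins was listed as an enzyme or carrier. This shared trait was thus largely set by the list. This count was also chosen after the values were seen.

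Members with a match to the composite element lay on both sides of 2-fold. Asns and Slc7a11 were past 2-fold between high doxycycline and control, while Chac1, Trib3, Nupr1, Vldlr and Got1, which also hold a match in the window, lay between -0.33 and 0.08 on the log2 scale. Slc1a4 lay at 0.84. Shmt2, Psat1 and Mthfd2 were past 2-fold without a match in their windows, which says only that these letters are not there.

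Other genes of the pathway were taken from 5 lists. Of the 20 aminoacyl-tRNA synthetases, which charge tRNA and are in part ATF4 targets, 18 were measured, all bright. Rars, the synthetase for arginine, had 2355 on tumor, 2960 on high doxycycline and 645 on control. Wars, for tryptophan, had 2387 on tumor, 2965 on high doxycycline and 970 on control. Yars, for tyrosine, had 1871 on tumor, 2067 on high doxycycline and 1027 on control. These 3 were the synthetases past 2-fold on high doxycycline over control, 3 of 18 or 16.7%, near the background of 17.4%. Vars, for valine, went the other way, with 767 on tumor, 1065 on high doxycycline and 1873 on control, 2.44-fold dimmer on tumor than on control. Between tumor and high doxycycline 14 of 18 were dimmer on tumor, 4 were identical and none was brighter, with none past 2-fold, where 40.6% of all bright genes were dimmer. With a common median, and likewise under quantile normalization, 13 were dimmer and 5 brighter. Of all 11212 bright genes, 3667 were dimmer and 7545 brighter with a common median. Under quantile normalization 3920 were dimmer and 7281 brighter.

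**Figure D4:**
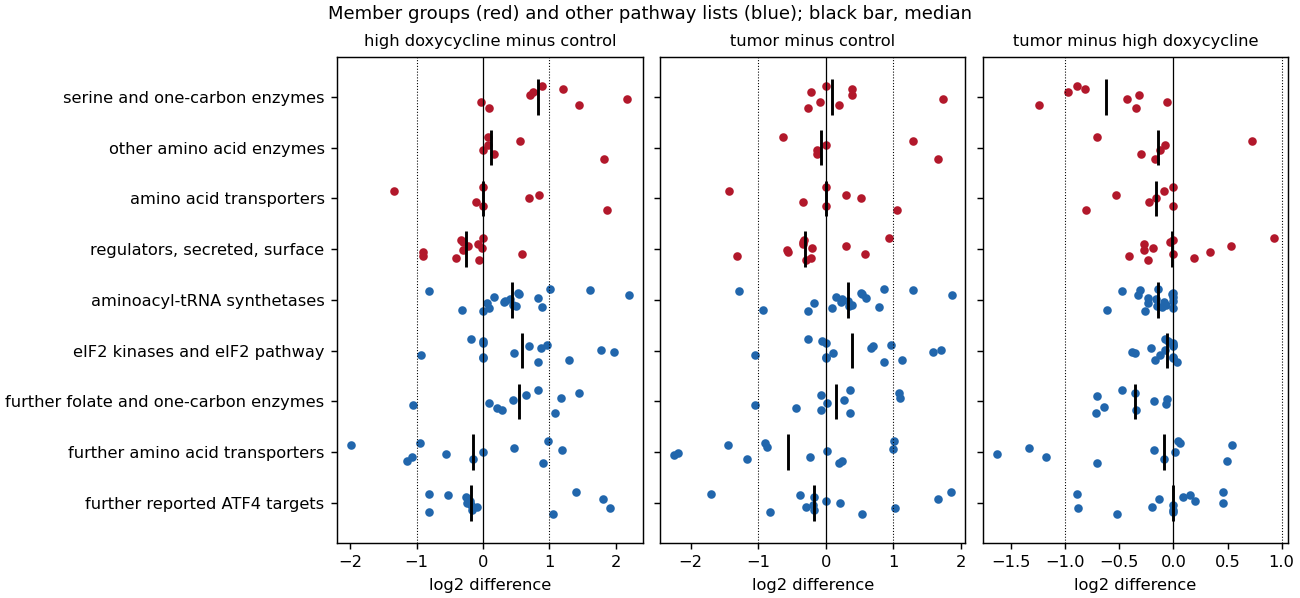
Log2 differences of the bright genes of each member group (red) and of 5 other pathway lists (blue), 1 point per gene, for the 3 pairs of arrays; black bars are medians and dotted lines mark 2-fold. In the tumor minus high doxycycline panel every point of both lists of one-carbon enzymes lies left of 0.

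Of 12 further folate and one-carbon genes that were measured, 10 were bright in the comparisons with control. Slc25a32, the mitochondrial folate carrier, had 895 on tumor, 1149 on high doxycycline and 420 on control. Mthfd2l, a relative of Mthfd2, had 1294 on tumor, 1348 on high doxycycline and 600 on control. Mtr, methionine synthase, had 731 on tumor, 1201 on high doxycycline and 569 on control. These 3 were past 2-fold on high doxycycline over control, and the first 2 were on tumor over control, 3 and 2 of 10 genes against 17.4% and 18.5% of all bright genes. Under quantile normalization 1 gene of the list was brighter by 2-fold in the first pair and none in the second. All bright genes then had 14.6% and 16.2% brighter. Aldh1l1, the cytosolic counterpart of Aldh1l2, had identical values of 164 on tumor and high doxycycline and 341 on control, 2.08-fold dimmer on both. Its 2 equal values lay below the array medians, so it was bright only through the array labelled control. No gene of the list was dimmer than on control by 2-fold with a common median or under quantile normalization. The mitochondrial serine carrier gene Sfxn1 had 5123 on tumor, 7117 on high doxycycline and 3988 on control, past 2-fold in no pair. All 9 genes of this list bright on tumor or high doxycycline were dimmer on tumor (median -0.36), against 40.6% of all bright genes. Under the 2 other scalings all 9 were dimmer as well. All 11212 bright genes then had 3667 dimmer with a common median and 3920 under quantile normalization. The same held for all 8 bright members of the serine and one-carbon group. Both lists were chosen with earlier results of these data known, so neither is independent support for the other.

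In the eIF2 list 14 genes were measured. The eIF2 subunit genes Eif2s2 and Eif2s3x were brighter on both arrays than on control. Eif2s3x had 5427 on tumor, 5719 on high doxycycline and 1665 on control. Eif2s2 had 1962, 2557 and 653 in that order, and its second probe set had 914, 1184 and 396. Both subunit genes were past 3-fold on the first 2 arrays over control on the probe sets named first. Of the 4 eIF2 kinases, Eif2ak2 (PKR, the kinase that senses double-stranded RNA) had 547 on tumor, 615 on high doxycycline and 249 on control. Its control value lay just below the median of that array. Eif2ak4, which encodes GCN2, was listed at 572 and Eif2ak3, which encodes PERK, at 1072, on all 3 arrays alike. Such equal values, seen in 6.97% of genes bright in all pairs, have no stated reason. No difference, or lack of one, can be read from them for these kinase genes. Gcn1, which activates GCN2, had 536 on tumor, 583 on high doxycycline and 1109 on control. In all, 3 of 14 genes were past 2-fold brighter on high doxycycline over control, against 17.4% of all bright genes. On tumor over control 3 were brighter and Gcn1 was dimmer, against 18.5% and 10.2%. With a common median 5 were brighter in each of these pairs, against 20.98% and 23.01% of all bright genes, and none was dimmer. Under quantile normalization 3 were brighter and 1 was dimmer in each pair. All bright genes then had 14.6% and 16.2% brighter, and 10.01% and 11.41% dimmer. None was past 2-fold between tumor and high doxycycline.

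Some of the 16 further amino acid transporters were dim on the array labelled tumor. Slc38a4, a carrier of neutral and cationic amino acids, had 274 on tumor, 852 on high doxycycline and 1247 on control. Slc38a3, a glutamine carrier, had 160 on tumor, below the median of that array, 364 on high doxycycline and 768 on control. Slc1a3, the glutamate carrier of glia, had 276 on tumor, 698 on high doxycycline and 507 on control. These were the 3 of 11 bright genes past 2-fold between tumor and high doxycycline, all dimmer on tumor, against 1.94% of all bright genes dimmer and 1.58% brighter. Slc43a2, a carrier of large neutral amino acids, had 298 on tumor, 205 on high doxycycline, below the median of that array, and 814 on control. On tumor against control 4 of 12 bright genes were dimmer and 2 brighter by 2-fold, against 10.2% and 18.5% of all bright genes. On high doxycycline against control 3 of 11 were dimmer and 1 brighter, against 8.45% and 17.4%. In that pair 2 were dimmer and 3 brighter with a common median, and under quantile normalization 4 were dimmer in each of the 2 pairs and none was brighter.

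Of 14 measured genes in the list of further reported ATF4 targets 13 were bright. Bcat1, the cytosolic aminotransferase of branched-chain amino acids, had 1483 on tumor, 2736 on high doxycycline and 726 on control. Xpot, which exports tRNA from the nucleus, had 1757 on tumor, 1926 on high doxycycline and 552 on control. Klhl24, an adaptor of ubiquitin ligases, had 2896 on tumor, 2110 on high doxycycline and 800 on control. Those 3 and Atf3, a stress factor with 2109 on tumor, 3033 on high doxycycline and 1454 on control, were past 2-fold on high doxycycline over control, 4 of 13 or 30.8%, against 17.4% of all bright genes. None of the list was dimmer by 2-fold in that pair as deposited, against 8.45% of all bright genes. Under quantile normalization 3 were brighter and 2 dimmer, against 14.6% and 10.01% of all bright genes. Gadd45a, a stress and growth arrest gene, had 1278 on tumor, 2373 on high doxycycline and 4158 on control, 3.25-fold dimmer on tumor than on control. This list had a median of -0.18 for high doxycycline minus control, so that these 4 genes lay apart from the middle of the list. Between tumor and high doxycycline none of the 13 was past 2-fold.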

How the data were processed

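Biotin-labelled total RNA was hybridised to MoGene-1_0-st-v1 arrays, per the labels' protocols. The authors deposited 1 linear intensity per probe set and array; how they corrected, summarised and normalized the signal was not stated. Of 28856 probe sets, 21789 have 1 gene symbol in the platform annotation, for 19938 genes. A gene with several was represented by the probe set of highest mean log2 value.

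From these intensities, differences of log2(intensity + 1) were taken, so that folds understate changes of dim genes. A gene was bright in a pair if its higher value exceeded the median probe set of that array. With 1 array per group no test was possible and precision is limited. A call is a difference of at least 2-fold (1 on the log2 scale). Members and gene lists were chosen with earlier results of these data known. From each other pathway list, up to 4 genes with the largest differences past 2-fold are named; further genes there were picked with their values in view. There were 7 alternatives: shifting arrays to 1 median, quantile normalization, dropping the brightness filter, raising it to percentile 75, averaging probe sets, and pseudocounts of 16 and 64. A threshold of 0.5 (log2) was added after seeing the data. The computation was tested on simulated data. Python 3.11.15 and pandas 2.3.3 were used. Promoter sequences are from RefSeq, build GRCm38.p6.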

Additional observations from a re-analysis of the deposited data

How the results depend on the processing

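No paired analysis was possible because each group has 1 array and no test was made. The counts of members past 2-fold were within 1.5 times of those reported under all alternatives except the following. For high doxycycline against control, 3 members were dimmer under quantile normalization, with Cebpb and Ddit3 added to Slc1a5. For tumor against control, 2 members were brighter with the filter at percentile 75, where 18 members were left to count. At that filter 24.0% of all genes were brighter. At the threshold of 0.5, added after seeing the data, 12 members were brighter and 3 dimmer for high doxycycline against control, 7 and 5 for tumor against control, and 3 and 7 for tumor against high doxycycline. The median for tumor against control reversed to 0.11 with a common median, by the construction of that shift. Under quantile normalization the medians were -0.069 for high doxycycline against control and -0.19 for tumor against control. No member past 2-fold turned its sign under any of the 7 alternatives, and the members that crossed 2-fold were Aldh1l2, Mthfd2, Cebpb and Ddit3 for high doxycycline against control and Slc7a11 and Stc2 for tumor against control. Aldh1l2 reached 1.04 with a common median. The mean over probe sets changed no member, since each has 1 probe set. No detection calls were used, so that nearness to background is not known for dim genes such as Shmt1.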

Other observations

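Many members had exactly equal deposited values on several arrays. Slc7a5 and Slc38a2 were equal on all 3 arrays, and Gpt2, Got1, Aldh1l2, Cebpg, Vldlr and Stc2 were equal on 1 pair, so that 8 of 34 members were affected. Over the genes bright in all pairs 31.0% had an equal value on some pair of arrays. For tumor and high doxycycline 4 of 33 bright members (12.1%) were equal, against 26.3% of all bright genes. For high doxycycline and control these were again 4 of 33 members, against 9.23% of all bright genes. Such genes enter every count above as a difference of 0, and no spread can be read from them. The labels state no reason for the equal values.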
